A study of Mus musculus with 8 samples.

Results

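The growth hormone axis of mouse liver was followed through 10 genes: the receptor Ghr, the transcription factor Stat5b, the hormone Igf1, the IGF carrier Igfals, the binding proteins Igfbp1, Igfbp2 and Igfbp3, the feedback inhibitors Socs2 and Cish, and the repressor Bcl6. They were taken by name from a count table of 55401 gene identifiers, matched by Ensembl identifier to GRCm38 gene symbols. All 10 were found and all 10 passed the filter on low counts. Polyadenylated RNA came from livers of NOD Scid Gamma (NSG) mice, a strain without mature lymphocytes or natural killer cells, which bore a subcutaneous xenograft of a human colorectal cancer cell line. In 4 libraries the graft was Colo201 and in 4 it was HCT116, and the series asks what FGF19 made by a tumour does to the liver of its host. The sex label is male for 2 libraries of each line and female for the other 2, and the labels give no age, graft size, feeding state or time of collection. The libraries analysed here include no tumour-free host and no change of FGF19 inside a line, so FGF19 and other differences between the tumours cannot be told apart. In the titles a number stands for a line and sex label together (HCT116 1 and Colo201 2 labelled male, HCT116 3 and Colo201 4 labelled female), and L or R follows it. Nothing states that L and R were separate animals, so p-values measure only the spread between libraries, and that spread may be technical.

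Growth hormone from the pituitary binds Ghr on hepatocytes, the kinase Jak2 is activated, and Stat5b is phosphorylated and enters the nucleus. There it drives Igf1 and Igfals, which feed the circulating IGF1 complex, and Socs2 and Cish, which dampen the same signal. Male mice release the hormone in pulses and females more steadily, and this difference sets much of the sex-biased expression of mouse liver, in which Bcl6, a repressor that can occupy Stat5 sites, is higher in males.

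Promoter windows of 250 bases before to 50 bases after each RefSeq start (GRCm38.p6) were available for 9 of the 10 genes, in 15 windows. The Stat5-type motif TTCNNNGAA, which reads the same on both strands, was found in 5 windows of 3 genes: Cish, Bcl6 and Igfals. Of 32851 windows in the whole set, 8.298% held it at least once and 0.4566% at least 2 times. The windows with several matches are shown because Cish and Bcl6 carry the results on variation below, and the Igfals window because Igfals had the largest spread between the L and R libraries of a title number. Capitals mark TTCNNNGAA and, in Igfals, also the forkhead motif GTAAACA read on the opposite strand (3.65% of windows held it on either strand).

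Cish, chr9:107296409-107296708, plus strand: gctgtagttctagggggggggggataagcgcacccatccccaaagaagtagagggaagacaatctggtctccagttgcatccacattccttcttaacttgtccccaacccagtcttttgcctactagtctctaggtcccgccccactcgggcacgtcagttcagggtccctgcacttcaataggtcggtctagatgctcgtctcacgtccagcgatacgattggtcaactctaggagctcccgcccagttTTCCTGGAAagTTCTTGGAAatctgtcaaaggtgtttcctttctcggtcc

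Bcl6, chr16:23981234-23981533, minus strand: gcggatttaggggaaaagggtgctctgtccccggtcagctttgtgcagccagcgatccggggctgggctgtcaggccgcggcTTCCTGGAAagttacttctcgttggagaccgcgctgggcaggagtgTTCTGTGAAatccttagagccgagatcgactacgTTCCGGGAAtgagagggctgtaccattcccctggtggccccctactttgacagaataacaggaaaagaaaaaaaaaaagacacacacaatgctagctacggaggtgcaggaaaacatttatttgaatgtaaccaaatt

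Igfals, chr17:24877981-24878280, plus strand: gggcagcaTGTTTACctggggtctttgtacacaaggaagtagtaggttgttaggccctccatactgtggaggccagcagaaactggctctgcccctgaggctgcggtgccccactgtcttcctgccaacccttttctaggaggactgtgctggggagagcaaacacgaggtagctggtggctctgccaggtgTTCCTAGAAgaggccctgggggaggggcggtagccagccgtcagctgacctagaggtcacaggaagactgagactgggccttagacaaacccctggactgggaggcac

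In Cish the 2 matches began at bases 1 and 12 of the transcript, with the first transcribed base counted as 1. The Bcl6 window belongs to the downstream of its 2 listed starts and held 3 matches, beginning at -168, -122 and -88, where 0.03348% of windows (11 of 32851) held 3 or more. Its other window held 1 match, at -118. The Igfals window shown, of the 3 listed, held a Stat5-type match at -58 and the forkhead match at -242. Another Igfals window held a Stat5-type match at -236. A match in letters is a description and not a binding site.

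The libraries held 61347603 to 65457482 estimated counts, so depth was nearly even, and the lowest count of any of the 10 genes was 208, for Cish in Colo201_4L. Expression is given as CPM, counts scaled to a common library total by TMM, which evens out composition between libraries. The sex labels went against the sex chromosomes in all 8 libraries: Xist, transcribed from the inactive X of females, reached 253 CPM or more in every library labelled male and 0.805 CPM or less where the label is female, and 4 Y-linked genes (Ddx3y, Eif2s3y, Kdm5d and Uty) ran the other way. Libraries are therefore named by label only. Alb, the main hepatocyte product, was present at 76840 CPM or more in every library, as in liver tissue. Between lines 4 of 8 hepatocyte markers were higher in Colo201 hosts (Apoc3, Apoa1, Trf and Ahsg), with a summed level of 149300 to 192600 CPM against 120000 to 159200 CPM in HCT116 hosts and none at 0, as was 1 of 8 stellate markers (Reln). Their part in the line differences below was not tested. None was called among 8 Kupffer, 8 sinusoidal endothelial, 6 cholangiocyte and 3 tested neutrophil markers by edgeR (0, 1, 1 and 0 at an unadjusted p under 0.05). Of the lymphocyte markers Cd3e and Nkg7 were listed at 0 throughout. Cd79a was not at 0 in every library but did not pass the filter on low counts.

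Per length of transcript, in the authors' FPKM (fragments scaled by transcript length and library total), Igfbp2 was by far the most abundant of the 10 at 429 ± 100.9 FPKM (SD, n = 8). Igf1 followed at 55.3 ± 5.82, Ghr at 41.1 ± 7.20, Igfbp1 at 32.8 ± 15.4 and Igfals at 18.5 ± 14.6 FPKM. Igfbp3 stood at 7.95 ± 2.65, Stat5b at 7.64 ± 0.596, Socs2 at 3.84 ± 1.32, Cish at 3.33 ± 2.51 and Bcl6 at 3.03 ± 2.70 FPKM. Only the steps from Igfbp2 to Igf1 and from Stat5b to Socs2 separated neighbours whose ranges over the 8 libraries did not overlap.

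**Figure D1:**
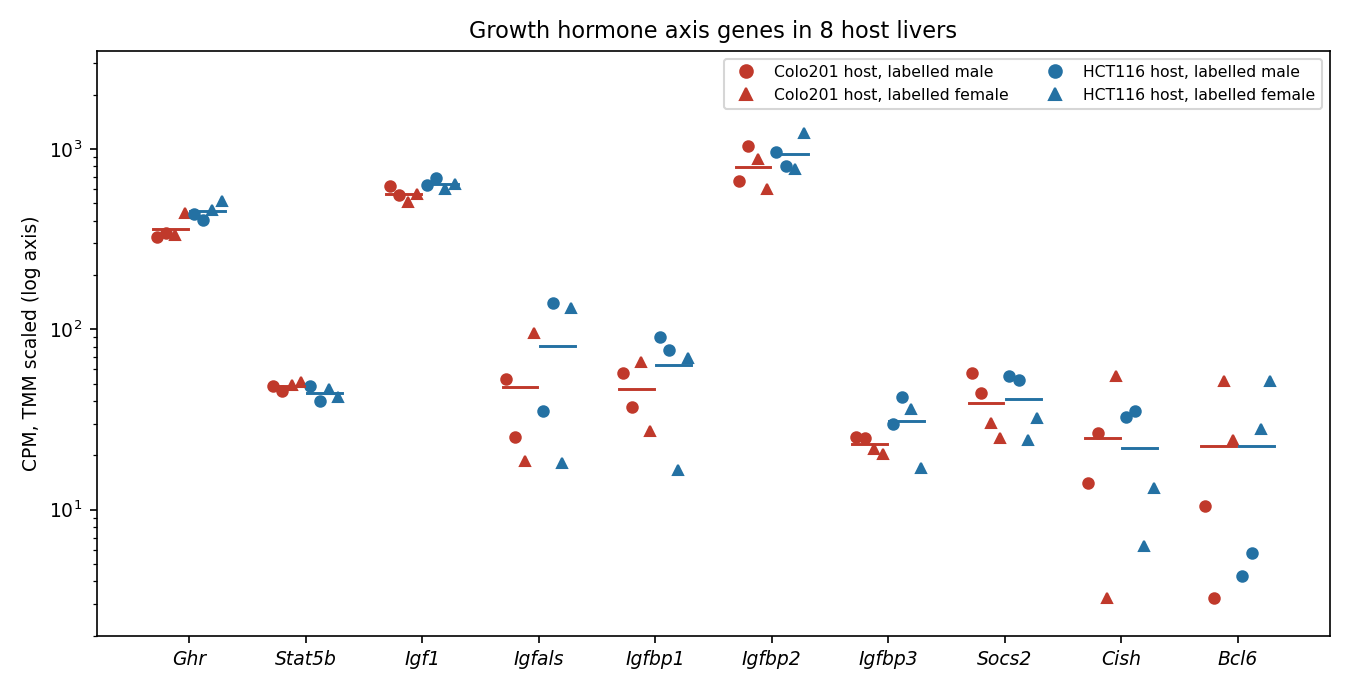
TMM-scaled CPM of the 10 genes in each of the 8 libraries on a log axis, with Colo201 hosts in red and HCT116 hosts in blue, circles for libraries labelled male, triangles for those labelled female, and a bar at each line's mean. For all 10 genes the points of the lines overlap, while Socs2 and Bcl6 separate circles from triangles.

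None of the 10 genes passed the threshold between the lines (edgeR quasi-likelihood test with Benjamini-Hochberg adjustment over 17669 genes, adjusted p under 0.05), where 4.78% of all tested genes did. The genes nearest to it were the receptor and the hormone: Ghr was 1.26-fold and Igf1 1.14-fold lower on average in Colo201 hosts, and these 2 alone had an unadjusted p under 0.05, as did 21.7% of all tested genes. DESeq2 called 1 of the 10, Ghr, beside 13.4% of the 14928 genes to which it gave an adjusted p. By sign 7 of 10 were lower in Colo201 hosts, with a median log2 fold change of -0.21 beside 0.00 over all tested genes. In bulk liver, fewer cells of a type and less RNA per cell cannot be told apart.

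Ghr, the growth hormone receptor (chr15:3317760-3583492, minus strand, GRCm38), stood at 324.5, 342, 333.3 and 442.2 CPM in Colo201_2L, 2R, 4L and 4R and at 433.1, 405.2, 460.9 and 515.4 CPM in HCT116_1L, 1R, 3L and 3R. Colo201_4R alone of its group reached into the HCT116 range, and the other 3 lay below every HCT116 library. The log2 fold change was -0.33 (SE 0.0998, 95% interval -0.559 to -0.104, adjusted p = 0.0994 in edgeR), and DESeq2 gave -0.34 with an adjusted p of 0.0238. Over all 19 alternatives the adjusted p for Ghr ran from 0.0238 to 0.228. An exact two-sided permutation test of 4 libraries against 4 gave p = 0.0857 for Ghr, where the smallest possible is 0.0286. Stat5b, the transcription factor that carries the signal to the nucleus (chr11:100780731-100850724, minus strand), varied little, at 45.55 to 50.96 CPM in Colo201 hosts and 39.95 to 48.55 CPM in HCT116 hosts. Its log2 fold change was 0.13 (SE 0.0908, 95% interval -0.074 to 0.34, adjusted p = 0.442).

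Igf1, the growth factor that liver secretes in response to growth hormone (chr10:87858265-87937042, plus strand), stood at 621.3, 552, 504.9 and 563.9 CPM in Colo201_2L, 2R, 4L and 4R and at 627.6, 689.1, 596.9 and 636.5 CPM in HCT116_1L, 1R, 3L and 3R. The groups overlapped through Colo201_2L, which lay above HCT116_3L. The log2 fold change was -0.19 (SE 0.0791, 95% interval -0.367 to -0.0062, adjusted p = 0.216), and the exact permutation test gave p = 0.0571. Scaled by library totals alone the lines did not overlap, at 498 to 587.9 CPM against 617.8 to 704 CPM, with an adjusted p of 0.127 in edgeR. The share of all tested genes without overlap at that scaling was not computed. Its overlapping antisense gene Igf1os reached at most 2.803 CPM, so its reads could add little to Igf1. The lines were without overlap for 0 of the 10 genes at TMM scaling, beside 12.3% of all tested genes.

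Igfals, the acid-labile subunit that holds IGF1 in its large circulating complex (chr17:24865997-24882010, plus strand), stood at 53.06, 25.21, 18.69 and 95.09 CPM in Colo201_2L, 2R, 4L and 4R and at 35.25, 139.3, 18.15 and 131.4 CPM in HCT116_1L, 1R, 3L and 3R. Both lines held low and high libraries, and the highest was 7.67-fold above the lowest. Between lines the log2 fold change was -0.78, with an interval of -2.43 to 0.876 (SE 0.725, adjusted p = 0.590). It ran from -1.48 without Colo201_4R to -0.18 without HCT116_1R. Igfbp3, the main binding protein of that complex, which in rat liver is made by cells other than hepatocytes (chr11:7206086-7213923, minus strand), lay between 20.38 and 25.27 CPM in Colo201 hosts. In HCT116 hosts it spread from 16.92 to 41.89 CPM, with HCT116_3R below every Colo201 library and the other 3 above them. Its log2 fold change was -0.42 (SE 0.217, adjusted p = 0.300), and it was -0.62 without HCT116_3R (adjusted p = 0.0619) and -0.20 without HCT116_3L (adjusted p = 0.683).

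Igfbp1, a binding protein that rises in fasting and is shut off by insulin (chr11:7197782-7202546, plus strand), stood at 56.98, 36.91, 65.77 and 27.37 CPM in Colo201_2L, 2R, 4L and 4R and at 90.09, 77.17, 16.66 and 68.93 CPM in HCT116_1L, 1R, 3L and 3R. HCT116_3L was the lowest of all 8, and the other HCT116 libraries were the highest. The log2 fold change was -0.36 (SE 0.455, adjusted p = 0.706), and with 1 library left out it ran from -0.76 (without Colo201_4L) to -0.023 (without HCT116_3R). Without HCT116_3L it was -0.73 (adjusted p = 0.286). Igfbp2, the most abundant binding protein here (chr1:72824503-72852474, plus strand), ran from 599.2 to 1040 CPM in Colo201 and from 770.6 to 1223 CPM in HCT116 hosts, with broad overlap (log2 fold change -0.24, SE 0.209, adjusted p = 0.553). That difference ran from -0.42 without Colo201_2R to -0.055 without HCT116_3R. Its level relative to Igfbp1 did not set the lines apart, since the FPKM ratio of Igfbp2 to Igfbp1 was 15.5 ± 6.36 in Colo201 and 17.6 ± 14.1 in HCT116 hosts (SD, n = 4 each).

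**Figure D2:**
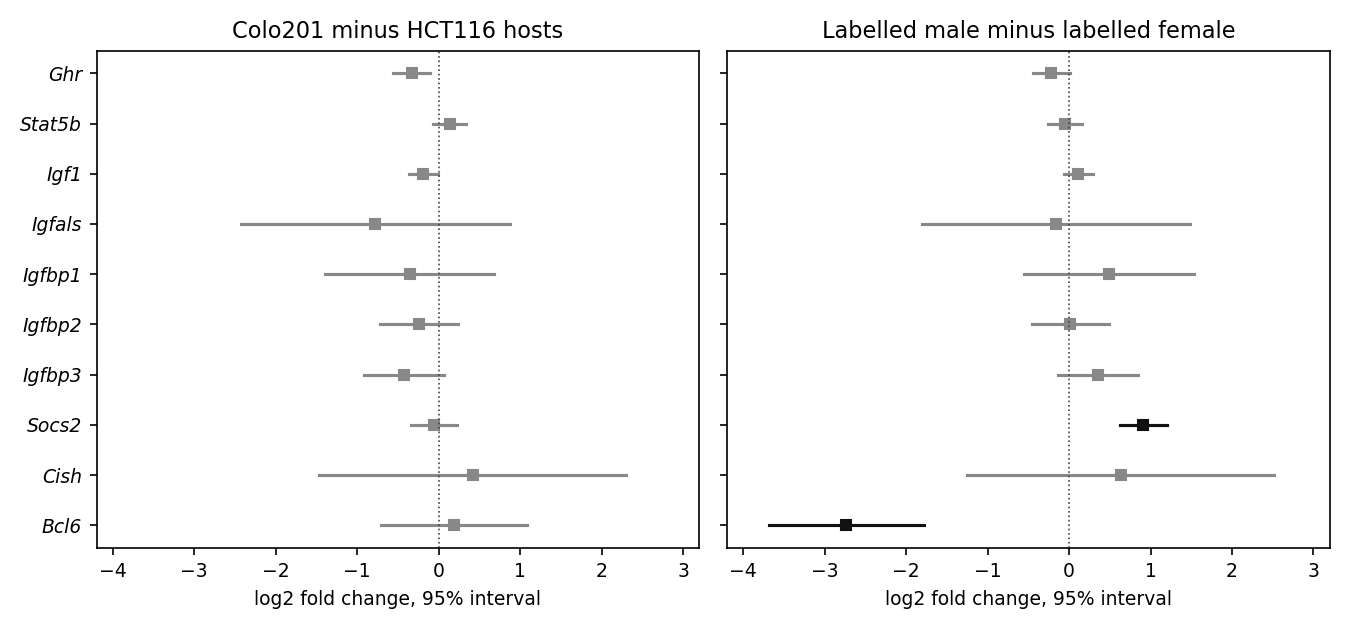
log2 fold changes (squares) with 95% intervals from edgeR for the 10 genes, Colo201 minus HCT116 hosts on the left and labelled male minus labelled female on the right, with called genes in black. On the left the intervals of Ghr and Igf1 just clear 0 without passing the adjusted threshold, and on the right Socs2 (0.91) and Bcl6 (-2.73) are the called genes.

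Socs2 and Bcl6 were the members that followed the sex label, in opposite directions: 2 of 10 passed, beside 4.02% of all tested genes, and for the same 2 of 10 the labels did not overlap, beside 9.64% of all tested genes. Socs2, a feedback inhibitor of growth hormone receptor signalling (chr10:95385362-95417180, minus strand), stood at 57.54, 44.43, 55.25 and 52.54 CPM in Colo201_2L, Colo201_2R, HCT116_1L and HCT116_1R, labelled male, and at 30.07, 24.94, 24.46 and 32.04 CPM in Colo201_4L, Colo201_4R, HCT116_3L and HCT116_3R, labelled female. Every library labelled male, which are the Xist-expressing ones, lay above every library labelled female. Socs2 was 1.88-fold higher in libraries labelled male (log2 fold change 0.91, SE 0.126, adjusted p = 0.00641), and the adjusted p was 0.0492 with L and R summed. Between the lines its log2 fold change was -0.06 (SE 0.125, 95% interval -0.344 to 0.226, adjusted p = 0.830).

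Bcl6 (chr16:23965052-23988852, minus strand) stood at 10.51, 3.22, 4.284 and 5.721 CPM in Colo201_2L, Colo201_2R, HCT116_1L and HCT116_1R, labelled male, and at 51.91, 24.22, 28.07 and 51.66 CPM in Colo201_4L, Colo201_4R, HCT116_3L and HCT116_3R, labelled female. The labels were far apart, with the lowest library labelled female above the highest labelled male. Bcl6 was 6.65-fold lower in libraries labelled male (log2 fold change -2.73, SE 0.418, adjusted p = 0.0101). Both Socs2 and Bcl6 passed with each of the 8 libraries left out in turn. The line difference of Bcl6 was 0.19 (SE 0.394, 95% interval -0.713 to 1.08, adjusted p = 0.832). Along with the label, all 8 Kupffer markers and all 8 sinusoidal endothelial markers had a higher mean in libraries labelled male, of which C1qa and Stab2, Pecam1 and Stab1 passed. With the label male the summed Kupffer level was 396.1 to 481.1 CPM and with the label female 170.9 to 335 CPM, the endothelial sum was 328.2 to 364 and 199.4 to 282.6 CPM, and none of these markers was at 0. Of 8 hepatocyte markers Alb and Ahsg also passed, both higher in libraries labelled male, with 5 of 8 positive and 3 negative by sign. The hepatocyte sum was 149400 to 192600 CPM with the label male and 120000 to 149900 CPM with the label female. The part of these markers in the label difference was not tested.

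Cish, the other feedback inhibitor (chr9:107296026-107302784, plus strand), spanned 17.0-fold. It stood at 14.08, 26.61, 32.64 and 35.18 CPM in Colo201_2L, Colo201_2R, HCT116_1L and HCT116_1R and at 3.254, 55.38, 6.289 and 13.17 CPM in Colo201_4L, Colo201_4R, HCT116_3L and HCT116_3R. The extremes of the whole set, lowest and highest, were the L and R libraries of Colo201 4, and without Colo201_4R all libraries labelled female were below all labelled male. With 8 libraries the label difference was 0.63 (SE 0.828, adjusted p = 0.757), and without Colo201_4R it was 2.12 (adjusted p = 0.0243). Between lines it was 0.42 (SE 0.827, adjusted p = 0.816) and, without that library, -1.05 (adjusted p = 0.136). Colo201_4R also stood apart in Krt19, a bile duct keratin, at 25.91 CPM against 2.167 CPM or less elsewhere, and had the lowest Kupffer sum. Its summed cholangiocyte level was 62.98 CPM against 27.75 to 38.69 CPM elsewhere. That sum includes the 25.91 CPM of Krt19, so it is not a separate sign. The part of these markers in the Cish and Ghr values of that library was not tested.

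**Figure D3:**
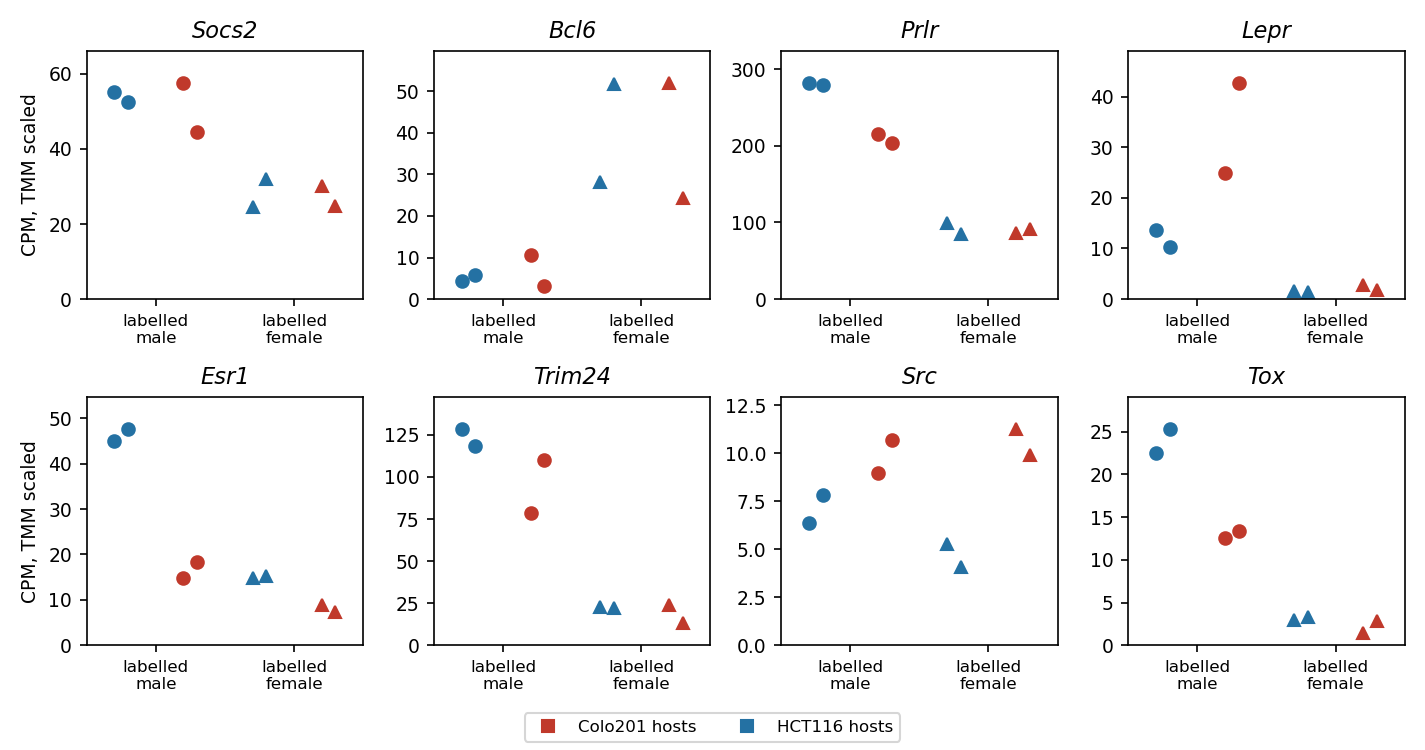
TMM-scaled CPM of Socs2, Bcl6 and 6 genes of growth hormone signalling and its liver cofactors in the 8 libraries, by sex label, with HCT116 hosts in blue and Colo201 hosts in red, circles for libraries labelled male and triangles for those labelled female. Socs2, Bcl6, Prlr, Lepr, Tox and Trim24 separate the labels, and Esr1 is lower in Colo201 than in HCT116 hosts within each label.

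The 10 genes fell into a steady and a variable group when the L and R libraries of 1 title number were compared, a contrast that holds line and label constant. Spread is given as the SD of log2(CPM + 1) within title numbers, and its median over the 9567 tested genes of at least 5 CPM was 0.158. Igf1 (0.101), Stat5b (0.114), Ghr (0.161) and Socs2 (0.209) lay near that value. Igfbp2 (0.390) and Igfbp3 (0.406) were wider, and Bcl6 (0.715), Igfbp1 (0.858), Cish (1.396) and Igfals (1.496) wider still. Only 34 of the 9567 genes had a larger spread than Igfals, 42 a larger one than Cish, 150 than Igfbp1 and 243 than Bcl6. This ranking describes these libraries and carries no test.

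**Figure D4:**
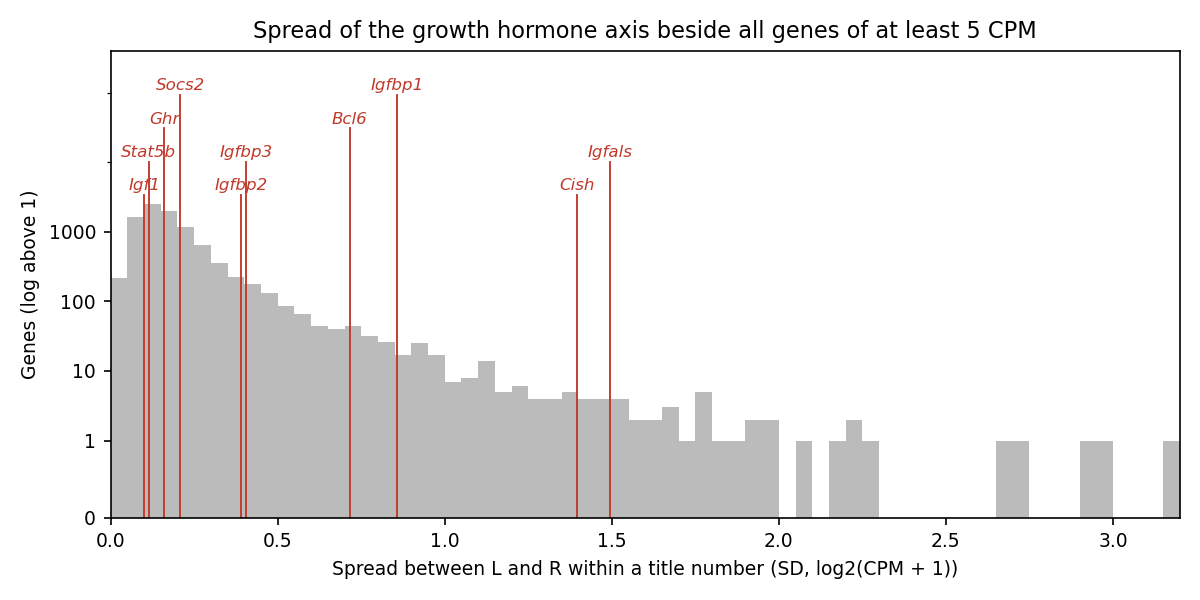
Histogram of the SD of log2(CPM + 1) between L and R libraries of a title number for 9567 genes of at least 5 CPM, with gene counts on a log axis above 1 and a red line for each of the 10 growth hormone axis genes. Igf1, Stat5b, Ghr and Socs2 sit in the bulk near the median of 0.158, and Cish (1.396) and Igfals (1.496) sit in the far tail.

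The direction of the L to R difference varied between genes and title numbers. Igfals was higher in R than in L in HCT116 1, HCT116 3 and Colo201 4, by 1.95, 2.79 and 2.29 on the log2 scale, and lower in R of Colo201 2, at -1.04. Cish was higher in R in 4 of 4 title numbers, by 0.10, 0.87, 0.96 and 3.73 in HCT116 1, Colo201 2, HCT116 3 and Colo201 4. Igfbp1 was higher in R in HCT116 3 only (1.99), and its differences in HCT116 1, Colo201 2 and Colo201 4 were -0.22, -0.61 and -1.24. What L and R stand for is not given, so no side effect was tested.

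**Figure D5:**
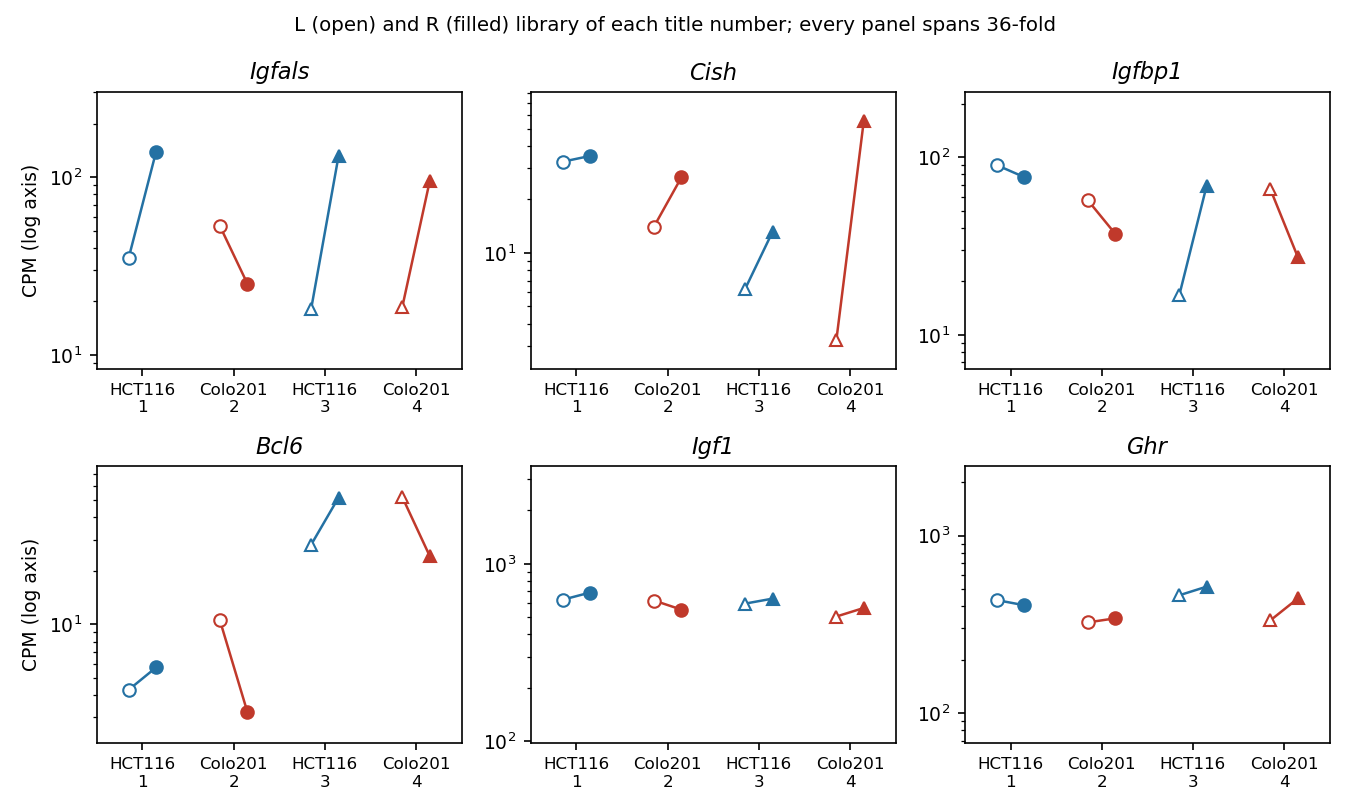
TMM-scaled CPM on log axes in the L (open) and R (filled) library of each title number, joined by a line, for 4 variable genes (Igfals, Cish, Igfbp1, Bcl6) and 2 steady ones (Igf1, Ghr), with HCT116 in blue, Colo201 in red, circles for libraries labelled male and triangles for those labelled female. Cish was higher in R in 4 of 4 title numbers, Igfals, Igfbp1 and Bcl6 went both ways, and the largest difference of Ghr was the 0.41 (log2) by which R exceeded L in Colo201 4.

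The genes whose level over the 8 libraries was most like that of a member were found by Pearson correlation of log2(CPM + 1) among genes of at least 5 CPM. The libraries share lines, labels and title numbers, so r is a description and the points are not independent. For Igf1 the nearest were Efhd2 (r = 0.966), Tomm70a (0.956) and Setd5 (0.953), and for Igfbp1 Immp2l (0.930), Sirpa (0.929) and Spg7 (0.915). Socs2 was tracked by the prothrombin gene F2 (0.984), by Mpc2 (0.968) and by Slc3a2 (0.966), which like Socs2 lay higher in all 4 libraries labelled male. Cish was tracked by Zfp263 (0.967), Phykpl (0.961) and Cnot7 (0.942). For Igfals, which was added to this search after its values were seen, they were Fbxo45 (0.937), G6pc (0.921) and Cebpb (0.911). G6pc, the final enzyme of glucose release, moved with Igfals from 95.56 CPM in HCT116_3L to 409.1 CPM in HCT116_1R, the libraries in which Igfals was also lowest and highest. Among the members themselves the strongest relation was the inverse one of Socs2 and Bcl6 (r = -0.775, 8 libraries), which both follow the label.

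Within a sex label the line comparison rests on 1 title number against another. With edgeR 0 of 10 members passed in either label, beside 0.232% of all tested genes in libraries labelled male and 0.492% in those labelled female. At an unadjusted p under 0.05 there were 0 of 10 members in each, beside 2311 and 2494 of the 17669 genes tested. The log2 fold change of Ghr was -0.33 in each label, and Igf1 had -0.17 in libraries labelled male and -0.21 in those labelled female. With 1 library left out, which leaves a lone library assumed to vary like the others, Ghr in libraries labelled female ran from -0.55 (without Colo201_4R) to -0.15 (without Colo201_4L). Igf1 in libraries labelled male ran from -0.25 (without Colo201_2L) to -0.083 (without Colo201_2R). Igfals had -1.16 and -0.39, Igfbp1 -0.83 and 0.12, and Cish -0.74 and 1.59. The difference between these line effects was taken as labelled female minus labelled male. At an unadjusted p under 0.05 in edgeR there were 0 of 10 members, beside 725 of the 17669 genes tested. This difference passed for 0 of 10 members, beside 0.0283% of all tested genes. It was 2.33 for Cish (SE 1.42, unadjusted p = 0.140, adjusted p = 1.0 in edgeR), and -0.84 without Colo201_4R.

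Around the members, of 20 genes of receptor signalling 2 were higher in Colo201 hosts: Src, a kinase that the growth hormone receptor can activate (log2 fold change 0.82, SE 0.184, adjusted p = 0.0439), and Lepr, the leptin receptor (1.10, SE 0.259, adjusted p = 0.0497). Both sat close to the threshold, and leaving out 1 library in turn lost the call of Src in 8 of 8 and of Lepr in 7 of 8 cases. With L and R summed, 0 of the 15 genes called between the lines in the lists of signalling, cofactors, targets, insulin and stress still passed in edgeR, and with no sex-label covariate 2 of 15 did, one of them Trib3. Prlr, the prolactin receptor, did not pass (-0.23, adjusted p = 0.225), nor did Ptpn11 (-0.23, adjusted p = 0.170). None of the 10 tested IGF receptors, other binding proteins and substrates passed in edgeR (2 at an unadjusted p under 0.05), the nearest being the insulin receptor substrate Irs1 (0.66, adjusted p = 0.0564).

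Among liver factors that act with Stat5b, the oestrogen receptor Esr1 was lower in Colo201 hosts. Esr1 stood at 14.88, 18.33, 8.792 and 7.372 CPM in Colo201_2L, 2R, 4L and 4R and at 44.98, 47.56, 14.79 and 15.28 CPM in HCT116_1L, 1R, 3L and 3R. Within each sex label both Colo201 libraries lay below both HCT116 libraries. The log2 fold change of Esr1 was -1.19 (SE 0.144, adjusted p = 0.00666), and the call held with each library left out. It did not pass with L and R summed (adjusted p = 0.120) or without the covariate (adjusted p = 0.190).

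The sex-biased targets of growth hormone and Stat5b were called in both directions, or in few members, between the lines. Of 14 targets known as male-biased in mouse liver, 2 were lower in Colo201 hosts, Nox4 (-1.69, SE 0.393, adjusted p = 0.0483) and Elovl3 (-2.06, SE 0.480, adjusted p = 0.0483), with 7 of 14 positive and 7 negative by sign. Of 16 targets known as female-biased, Cyp17a1 (2.22, SE 0.415, adjusted p = 0.0272) and Prom1 (2.75, SE 0.615, adjusted p = 0.0435) were higher and Slc22a26 (-1.30, SE 0.173, adjusted p = 0.00943) was lower. Of all tested genes 4.78% passed between the lines. At an unadjusted p under 0.05 in edgeR there were 7 of the 14 and 8 of the 16, beside 21.7% of all tested genes. The lists were not tested as sets. The calls of Nox4, Elovl3 and Prom1 were lost in 7, 7 and 8 of 8 cases with 1 library left out, and that of Slc22a26 in 0. The call of Cyp17a1 was lost in 4 of 8, without Colo201_4R, HCT116_1L, HCT116_1R or HCT116_3L. Slc22a26 had an adjusted p of 0.120 with L and R summed and of 0.841 without the covariate. Within libraries labelled female, edgeR called Cyp2b13, Cyp2a4, Prom1 and Cyp2b9 higher and Slc22a26 lower in Colo201 hosts. No other target of either list passed there, where 0.492% of all tested genes did. Within those labelled male, only Nox4 passed, lower in Colo201 hosts, where 0.232% of all tested genes did. Each of these comparisons sets 1 title number against another. The label comparison, by contrast, called 13 of 14 male-biased targets lower and 14 of 16 female-biased targets higher in libraries labelled male, which are those that express Xist. Not all of these calls held with L and R summed, as listed below. For Sult3a1, a sulfotransferase, the log2 difference was 9.75 (SE 0.224, adjusted p = 3.86e-07) and Cyp4a12a, a fatty acid hydroxylase, -9.62 (SE 0.376, adjusted p = 6.78e-06). Several of these targets have near-identical copies, so reads may be split between them.

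Between sex labels Prlr (log2 fold change 1.42, SE 0.104, adjusted p = 0.000231) and Lepr (3.41, SE 0.276, adjusted p = 0.000378) were higher in libraries labelled male, the 2 of 20 receptor signalling genes that passed. Prlr ran from 203 to 281.6 CPM where the label is male and from 84.33 to 99.4 CPM where it is female, without overlap. Of the 14 cofactors Tox (2.76), Trim24 (2.41) and Esr1 (1.33) were higher in libraries labelled male, and Cebpa was lower (-0.46, adjusted p = 0.0396), a call lost in 6 of 8 cases with 1 library left out. None of the 10 IGF receptors and other binding proteins passed in edgeR, Igf1r being the nearest (0.94, adjusted p = 0.0974). At an unadjusted p under 0.05 there were 3 of the 10, beside 3211 of the 17669 genes tested.

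Genes under insulin and Foxo1, which also act on Igfbp1, were called in both directions between the lines: of 14, Trib3 was higher in Colo201 hosts (1.62, SE 0.195, adjusted p = 0.00666) and Pck1, the gluconeogenic enzyme, was lower (-0.50, SE 0.109, adjusted p = 0.0396), a call lost in 7 of 8 cases with 1 library left out. Of 13 genes of steroid and stress inputs to growth hormone signalling, Lcn2, an acute phase product, was higher (1.78, SE 0.275, adjusted p = 0.0157). Fkbp5, a glucocorticoid target, was lower (-0.88, SE 0.0955, adjusted p = 0.00469), as were Orm2 (-1.47, adjusted p = 0.0272) and Fgl1 (-0.69, adjusted p = 0.0448). The calls of Trib3 and Fkbp5 held with each library left out, while those of Lcn2, Orm2 and Fgl1 were lost in 1, 5 and 6 of 8 cases. With L and R summed the adjusted p was 0.0838 for Trib3 and 0.102 for both Fkbp5 and Lcn2, and without the covariate it was 0.487 for Fkbp5 and 0.284 for Lcn2. Between labels 6 of these 13 were higher in libraries labelled male (Fkbp5, Sgk1, Orm2, Lcn2, Fgl1 and Per1), as was Pck1 of the insulin genes. With L and R summed, 25 of the 40 genes called between labels in all these lists still passed, and Esr1, Cebpa, Sgk1, Orm2, Fgl1 and Per1 did not. Nor did the male-biased targets Hsd3b5, Slco1a1 and Nox4, or the female-biased targets Cyp2b9, Cyp2b13, Hao2, Cyp17a1, Prom1 and Atp6v0d2.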

How the data were processed

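Transcript levels were measured in 8 libraries of mouse liver. Tissue went into RNAlater, total RNA was isolated with TRIzol, and stranded TruSeq mRNA libraries were prepared, per the labels' protocols. The submitters' processing notes name HISAT2, StringTie and GRCm38 (mm10), without versions, annotation or strand setting. The authors deposited estimated counts per gene, which are whole numbers and were used as they stand, and FPKM. Among counts of 1 to 16, 43.9 to 45.0% were multiples of 4 (25% by an even spread). Their derivation from reads is not stated. FPKM served for levels per length and in alternatives.

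Counts were TMM-scaled, filtered with filterByExpr (17669 genes kept) and compared by the quasi-likelihood test of edgeR 4.0.16 (R 4.3.3), with sex label as covariate for lines and line for labels; comparisons within a label and the interaction used a mean per combination. P-values were two-sided, adjusted by Benjamini-Hochberg over all genes, threshold 0.05. The fit was tested on simulated counts drawn independently for each library, so that test cannot bear on a dependence between L and R. The members and gene lists were chosen with earlier results of these data known. Named genes were the 10 members, and of each list the genes that passed plus up to 4 with the smallest p, and the 3 genes nearest in pattern to Igf1, Igfbp1, Socs2 and Cish. Alternatives were other scalings, DESeq2 1.42.0, limma 3.58.1 on log2(FPKM + 1) or log2(FPKM + 0.1), no filter, counts divided by 4, the 20 most abundant genes left out, no covariate, L and R summed, and each library left out. Some listed genes are not reported here. Promoter windows were from RefSeq GRCm38.p6.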

Additional observations from a re-analysis of the deposited data

Results flagged for a closer look

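Ghr in Colo201_4R stood at 442.2 CPM, apart from the other 3 Colo201 libraries at 324.5 to 342 CPM: the gap took 0.851 of the group's range, where 0.829 is the critical value for 4 libraries. Of 64 groups tested 1 was so far apart. The chance rate of about 1 in 20 holds for 4 alike libraries, whereas each group here mixed both sex labels and L and R libraries. Some of the genes tested had also been chosen for a call in these data, so that rate may not apply. Without that library the line difference of Ghr was -0.42 on the log2 scale (adjusted p = 0.0577 in edgeR).

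The line effect differed between sex labels for 2 female-biased targets by the interaction in edgeR. It was 5.01 (SE 0.379, adjusted p = 0.0088) for Cyp2b13, which stood at 35.84 and 31.22 CPM in Colo201_4L and 4R and at 0.8354 and 0.3838 CPM in HCT116_3L and 3R, all labelled female, against 423.5 and 419 CPM in Colo201_2L and 2R and 240.3 and 258.4 CPM in HCT116_1L and 1R, labelled male. For Cyp2a4 it was 4.23 (SE 0.399, adjusted p = 0.0268), a call lost without Colo201_2L, Colo201_2R, HCT116_1L or HCT116_1R; that of Cyp2b13 was lost without Colo201_2L or HCT116_1R. With limma on FPKM the adjusted p for Cyp2a4 was 0.0641 to 0.0920. Both have near-identical copies, so reads may be split between genes. Each label holds 1 title number per line, so the label and the title number cannot be told apart in this difference.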

How the results depend on the processing

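In the line comparison 845 genes were called, against 1993 with DESeq2, 155 without the covariate, 3 with L and R summed (3480 at an unadjusted p under 0.05) and 175 to 550 with 1 library left out; members called were 0 in each but DESeq2, with 1 (Ghr). Between labels 710 genes were called, against 1585 with DESeq2, 141 with L and R summed and 327 to 630 with 1 library left out, and 2 members (Socs2, Bcl6) were called under every alternative, or 3 without Colo201_4R, which added Cish. In libraries labelled male 41 genes were called between lines, against 589 with DESeq2, 26 and 24 with limma at pseudocounts of 1 and 0.1, and 2 to 53 with 1 library left out; in those labelled female 87 were called, against 747 with DESeq2 and 19 to 79 with 1 left out. The interaction called 5 genes, against 53 with DESeq2, 2 and 2 with limma and 0 to 15 with 1 left out. A library left out there leaves 1 in its combination, which is assumed to vary like the others. Fewer libraries bear on the summed and left-out counts; the cause of the other shifts was not tested.

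Signs reversed for members in comparisons that did not call them. Cish between lines was 0.42, against -0.017 and -0.13 with limma at pseudocounts of 1 and 0.1 and -0.083 as a mean difference of log2(CPM + 1), and Igfals between labels was -0.16, against 0.14 and 0.17 with limma. With 1 library left out, line differences ran from -1.05 to 0.88 for Cish, -0.27 to 0.45 for Bcl6 and -0.14 to 0.017 for Socs2. Label differences ran from -0.75 to 0.54 for Igfals and -0.16 to 0.21 for Igfbp2. Within libraries labelled male Igfals ran from -1.83 to 0.15, and within those labelled female Igfals ran from -1.998 to 1.64, Igfbp1 from -0.66 to 1.49 and Cish from -1.58 to 2.499. Interactions ran from -0.84 to 3.23 for Cish, -0.84 to 2.80 for Igfals and -1.18 to 0.57 for Bcl6. Of the values for single genes 1471 kept direction and side of the threshold and 172 lost a call. No paired analysis was possible because the lines share no title number in the labels.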

Other observations

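Insr, the insulin receptor, stood at 22.84 CPM in HCT116_1R and at 121.8 to 159.8 CPM in the other 7 libraries. It was named after its values were seen.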
